A study of Mus musculus with 12 samples.

Results

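Among the RNAs counted in picked cells of mouse retinas after optic nerve crush, 7 long noncoding RNAs with neuronal or nuclear roles were followed across 12 libraries: Snhg11, Meg3, Rian, Mirg, Miat, Malat1 and Neat1. They were taken by symbol from the gene count table, which held 54232 genes, 12717 of them long noncoding, and all 7 were found. They were chosen by name, with their CPM (the count over the library's total, times 1000000) in the 4 groups already known. Their levels and differences are therefore given as a description, and the adjusted p beside a gene places it within the fit over all genes and supports nothing further. Polyadenylated RNA was measured in adult male wild-type (WT) mice whose eyes had received an adeno-associated virus of serotype 2 into the vitreous. The virus carried either Olig1, which encodes a basic helix-loop-helix protein that directs oligodendrocyte development, or a green fluorescent protein (GFP) control, and the optic nerve was then crushed, an injury that cuts the axons of retinal ganglion cells. The groups were Olig1 day 14, GFP day 14, Olig1 day 7 and GFP day 7, counted in days after the crush, with 3 libraries each. All animals had the crush, and the labels record 14 days of virus in every group. Each library was a pool of about 10 to 20 fluorescent cells picked with a Unipick device after enrichment with CD90.2 beads. The promoter that drove either gene is not given in the labels, and they do not state whether each pool was taken from a different mouse, so the errors and p-values measure the spread between pools, which may be technical.

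Long noncoding RNAs are transcripts without a long conserved reading frame, and many of them act in or from the nucleus. Snhg11 is a host gene of small nucleolar RNAs that is transcribed mainly in neurons. Meg3, Rian and Mirg are the maternally expressed noncoding RNAs of the imprinted Dlk1-Dio3 domain, read from the same strand. Meg3 binds chromatin regulators such as Polycomb repressive complex 2, Rian carries C/D box small nucleolar RNAs and Mirg carries a large cluster of microRNAs used in neurons. Malat1 gathers in nuclear speckles beside splicing factors, Neat1 is the scaffold of paraspeckles, and Miat (also called Gomafu) forms its own nuclear domains in neurons, the retina among them. Optic nerve crush kills most retinal ganglion cells over the following weeks, so RNAs of neurons are read there beside the marker genes of each retinal cell type.

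On the GRCm38 build, GENCODE M21 placed Snhg11 on chromosome 2 at positions 158375638 to 158386145 and listed it as protein coding, whereas RefSeq lists it as a long noncoding RNA. Meg3 (chromosome 12, 109541001 to 109571726), Rian (109603940 to 109661716) and Mirg (109729764 to 109749460) followed one another on the plus strand, 32.2 kb and 68.0 kb apart. Malat1 (chromosome 19, 5795690 to 5802672) and Neat1 (5824708 to 5845478) were neighbours on the minus strand, 22.0 kb apart, and each was annotated with 1 merged exon. Miat lay on chromosome 5 (112213228 to 112229395, minus strand). The merged exons spanned 8521 bases in Snhg11, 18089 in Meg3, 18234 in Rian, 7292 in Mirg, 9293 in Miat, 6983 in Malat1 and 20771 in Neat1.

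The promoters of the pair of RNAs that differed most clearly between the viruses are shown here as RefSeq gives them on GRCm38.p6, from 250 bases before to 50 bases after the start. Capitals mark E-boxes (CANNTG, read on both strands), the motif class bound by basic helix-loop-helix proteins, and the full cAMP response element (TGACGTCA, read on both strands). The first is chr2:158375463-158375762, and the second is chr12:109540746-109541045, both on the plus strand.
Snhg11: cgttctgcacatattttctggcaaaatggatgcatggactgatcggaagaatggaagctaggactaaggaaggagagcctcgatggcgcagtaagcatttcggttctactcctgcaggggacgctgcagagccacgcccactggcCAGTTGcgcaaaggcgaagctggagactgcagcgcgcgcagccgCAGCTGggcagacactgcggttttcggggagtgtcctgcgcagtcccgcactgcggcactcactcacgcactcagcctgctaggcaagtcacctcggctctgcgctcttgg
Meg3: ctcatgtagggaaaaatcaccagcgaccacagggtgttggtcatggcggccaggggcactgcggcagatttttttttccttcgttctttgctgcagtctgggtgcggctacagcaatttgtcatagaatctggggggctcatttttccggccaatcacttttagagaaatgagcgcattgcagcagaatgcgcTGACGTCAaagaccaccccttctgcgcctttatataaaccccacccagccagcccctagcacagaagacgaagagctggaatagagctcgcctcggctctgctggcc
The Snhg11 window held 2 E-boxes, which start at positions 146 and 190 of the window, and the second of them was CAGCTG. An E-box of any kind was present in 72.3% of the 32851 promoters in the table and CAGCTG in 16.3%. The Meg3 window at its upstream start held none and had the full cAMP response element at position 194, a motif present in 1.79% of promoters, with TATAAA first matched at position 222, on both strands in overlap (13.6% of promoters). A further Meg3 start on the same strand had 1 E-box, as had the windows of Rian, Mirg and Malat1 (CAGCTG in Malat1), and the Miat window had none. These matches are letters in a window and say nothing of binding.

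The 3 RNAs of the imprinted domain are also precursors of microRNAs, and a few of those are shown to give the identity of what they carry. RefSeq placed 1 hairpin of the table inside Meg3, 3 inside Rian and 14 inside Mirg. The mature sequences are read 5′ to 3′ with the seed, bases 2 to 8, in capitals. The first comes from Meg3, the second from Rian and the rest from Mirg.
mmu-miR-770-5p: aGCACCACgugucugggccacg
mmu-miR-370-3p: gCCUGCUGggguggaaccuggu
mmu-miR-134-5p: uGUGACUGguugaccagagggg
mmu-miR-382-5p: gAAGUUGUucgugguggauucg
mmu-miR-410-3p: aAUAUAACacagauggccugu
mmu-miR-453: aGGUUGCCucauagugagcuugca
mmu-miR-496a-5p: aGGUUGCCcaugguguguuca
miR-134, a brain microRNA known for limiting the growth of dendritic spines, has a seed unlike those of the other microRNAs shown, and miR-453 and miR-496a-5p share the seed GGUUGCC. Polyadenylated RNA libraries do not measure mature microRNAs. The annotated microRNA genes inside Meg3, Rian and Mirg had 0 counts summed over the 12 libraries. So did the 2 small nucleolar RNA genes inside Snhg11 and the 13 inside Rian. These zeros do not measure the small RNAs, and the values below are the counts assigned to the host genes.

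Total counts ran from 12534515 to 27602459 per library, and a count of 0 then allows up to 0.109 to 0.239 CPM, taking 3 counts as the limit; this covers counting error only. Olig1 itself ran from 56.4 to 520 CPM in the Olig1 day 14 libraries, against 0 to 0.251 CPM in GFP day 14, and from 249 to 1029 CPM in Olig1 day 7, against 0 to 0.351 CPM in GFP day 7. The labels call the cells retinal ganglion cells, but several markers of that type were low in the GFP libraries. Some were low in Olig1 libraries too. Slc17a6, which loads glutamate into ganglion cell vesicles, was at 0 in all 3 GFP day 14 libraries and reached 0.107 CPM in GFP day 7, and Pou4f2, a ganglion cell transcription factor, was at 0 in all 6 GFP libraries. In Olig1 day 14, Slc17a6 was at 0, 25.7 and 1.06 CPM, and Pou4f2 ran from 0 to 0.585 CPM. In Olig1 day 7, Slc17a6 ran from 30.8 to 92.6 CPM and Pou4f2 from 0.160 to 5.34 CPM. Rbpms, an RNA-binding protein gene used to mark ganglion cells, was not low throughout. It ran from 5.21 to 78.6 CPM in Olig1 day 14, against 0.0392 to 9.64 CPM in GFP day 14. At day 7 it ran from 55.1 to 568 CPM in Olig1 day 7, against 0.0533 to 76.0 CPM in GFP day 7. Müller glia markers summed to between 47508 and 148256 CPM in every library. Of these, Rlbp1 ran from 589 to 1034 CPM in Olig1 day 14, against 272 to 1059 CPM in GFP day 14, which overlapped. At day 7 Rlbp1 ran from 168 to 370 CPM in Olig1, against 765 to 1740 CPM in GFP, without overlap. Microglia and macrophage markers summed to between 1082 and 7658 CPM in 4 libraries (Olig1 day 7 replicate 3, GFP day 7 replicate 3, and GFP day 14 replicates 2 and 3) and to at most 36.7 CPM in the other 8, and plasma and B cell markers to 132816 CPM in GFP day 14 replicate 3 and at most 239 CPM elsewhere. Genes detected numbered 10129 in GFP day 14 replicate 1, the fewest, and from 14123 to 17244 in the others. In pools of this kind, fewer cells of a type and less RNA per cell cannot be told apart.

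Per kilobase of exon, Malat1 was the most abundant of the 7 in every group, and it held the first place among all long noncoding genes in each of the 12 libraries. Its mean was 1165 ± 360 CPM per kb in Olig1 day 14 and 942 ± 116 CPM per kb in GFP day 14, and 2003 ± 1195 CPM per kb in Olig1 day 7 and 2211 ± 461 CPM per kb in GFP day 7 (SD, n = 3 each). Snhg11 came next in every group, at 105 ± 27.9 CPM per kb in Olig1 day 14, 33.9 ± 8.40 in GFP day 14, 484 ± 469 in Olig1 day 7 and 40.7 ± 8.86 in GFP day 7. Meg3 was the next in each group, with means from 8.93 ± 5.67 CPM per kb in GFP day 14 to 69.4 ± 38.3 CPM per kb in Olig1 day 7. The other 4 averaged under 3 CPM per kb in every group, and there the order changed. Neat1 stood above Rian, Mirg and Miat in both GFP groups, whereas Rian stood above Neat1 in both Olig1 groups. These levels divide by the merged exons of all isoforms, 20771 bases in Neat1, so this order could differ for the isoforms actually counted. In Olig1 day 7, the per-length level of Snhg11 ranked second to eighth among long noncoding genes, with Snhg11 counted among them, and in GFP day 7 it ranked between 18 and 24.

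**Figure D1:**
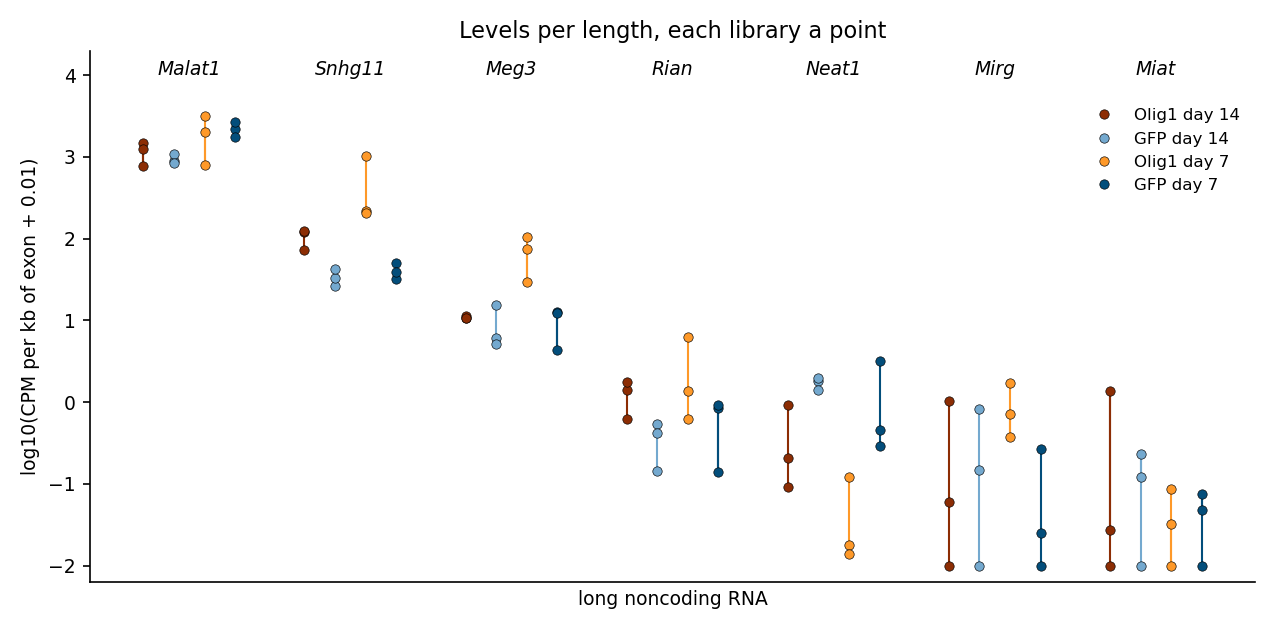
Level per length of each long noncoding RNA, as log10 of CPM per kb of merged exon plus 0.01, with a point for each library and a line joining the 3 libraries of a group. Malat1 lies highest in all groups, Snhg11 and Meg3 are highest in the Olig1 day 7 libraries, and Neat1 lies below its GFP day 7 level there.

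At day 7, Snhg11 and Meg3 were higher in Olig1 than in GFP cells by log2 fold changes of 3.67 ± 0.58 and 2.95 ± 0.53 (SE). The neighbours Rian and Mirg had positive fold changes with wide errors, the Malat1 levels overlapped, and Neat1 lay lower in each Olig1 library than in any GFP library. Of the 7 RNAs, 2 were called at an adjusted p under 0.05 by edgeR's quasi-likelihood test with Benjamini-Hochberg adjustment over all 14985 genes tested, of which 34 (0.227%) were called, 21 higher (0.14%) and 13 lower (0.0868%). All 7 RNAs passed the filter on low counts. The groups did not overlap in 3 of the 7 on the higher side (9.4% of all genes tested) and in 1 on the lower side (9.01%). At day 14, 0 of the 7 were called, against 6 of 14985 genes (0.04%), 3 higher (0.02%) and 3 lower (0.02%), and the groups did not overlap in 2 on the higher side (7.78%) and 1 on the lower side (4.12%). Since these levels were known when the RNAs were chosen, nothing is read from these counts. The median log2 fold change of the 7 was 0.35 at day 14, against 0.09 for all genes tested, and 2.30 at day 7, against -0.03.

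**Figure D2:**
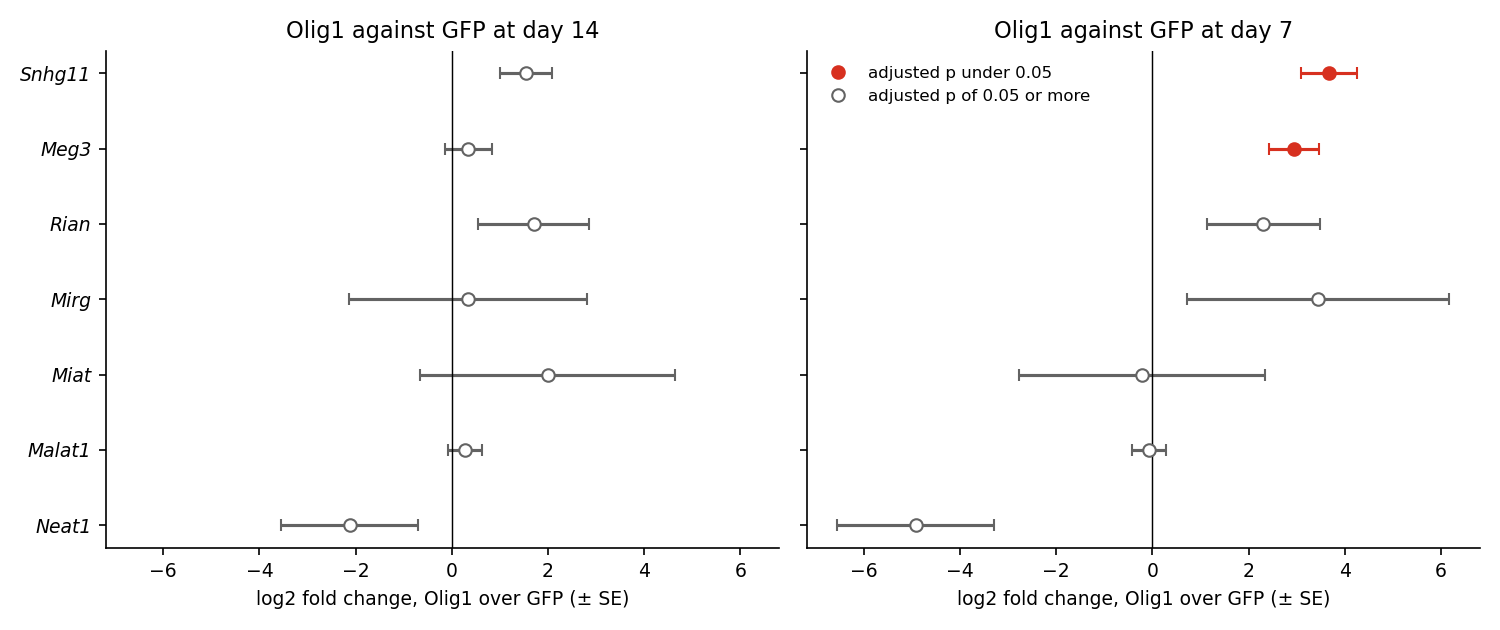
Log2 fold change of each RNA, Olig1 over GFP, at day 14 (left) and day 7 (right) from the edgeR fit, with bars of 1 SE (3 libraries a group). Snhg11 at 3.67 and Meg3 at 2.95 are the filled points at day 7, and Neat1 lies on the negative side at both days.

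Snhg11, the neuronal host of small nucleolar RNAs, was high in Olig1 cells at both days and highest at day 7. It had 622, 1016 and 1050.3 CPM in Olig1 day 14, against 222, 279.8 and 364 CPM in GFP day 14. It had 8735, 1876.5 and 1762 CPM in Olig1 day 7, against 427, 277 and 336 CPM in GFP day 7. Each Olig1 library lay above each GFP library of its day, and 1 Olig1 day 7 library, replicate 1, lay far above its fellows. The group means were 896 ± 238 CPM in Olig1 day 14 and 289 ± 71.6 in GFP day 14, and 4124 ± 3993 CPM in Olig1 day 7 and 347 ± 75.5 in GFP day 7 (SD, n = 3 each). In the order of the means, Olig1 day 7 stood above Olig1 day 14 and that above GFP day 7 without overlap, whereas the ranges of GFP day 7 and GFP day 14 overlapped. The log2 fold change of 3.67 ± 0.58 at day 7 passed the threshold (edgeR, adjusted p = 0.0178). At day 14 it was 1.54 ± 0.54 and did not pass (edgeR, adjusted p = 0.438). The difference between the days, day 14 minus day 7, was -2.13 ± 0.75 and did not pass (edgeR interaction, adjusted p = 0.364).

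The rise of Snhg11 at day 7 was 2.82 ± 0.49 on the log2 scale without Olig1 day 7 replicate 1 and still passed (edgeR, adjusted p = 0.0418). It did not pass without GFP day 7 replicate 1, 2 or 3 (edgeR, adjusted p = 0.0798, 0.0891 and 0.106), nor when only the 6 day 7 libraries entered the fit (edgeR, adjusted p = 0.0993), while its size there stayed between 3.62 and 3.78. The range of adjusted p over its 14 alternatives was 8.96e-09 to 0.106.

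At day 7 Snhg11 and the markers of ganglion and amacrine cells were both higher in the Olig1 libraries, while other inner retinal markers were not. The 16 ganglion cell markers summed to 3323 to 4985 CPM in Olig1 day 7, with 15 detected in each library, against 229 to 358 CPM in GFP day 7, with 11 to 13 detected. The 14 amacrine cell markers, which label inhibitory interneurons, summed to 1977 to 4782 CPM in Olig1 day 7 and 400 to 962 CPM in GFP day 7. The bipolar cell markers were lower in Olig1, with sums of 244 to 539 CPM in Olig1 day 7 and 1344 to 2641 CPM in GFP day 7. The 6 horizontal cell markers overlapped, with 615 to 942 CPM in Olig1 day 7 and 279.7 to 1653 CPM in GFP day 7. Within Olig1 day 7, replicate 1 had the highest Snhg11 level, the lowest ganglion cell sum and the highest amacrine cell sum. At day 14 the ganglion cell sum was 292, 3986 and 251 CPM in Olig1 replicates 1, 2 and 3, against 227 to 435 CPM in GFP. Replicate 2 lay above GFP in that sum, and all 3 Olig1 libraries lay above GFP in Snhg11. The amacrine sum at day 14 was 1543, 830.4 and 2115 CPM in Olig1 replicates 1, 2 and 3, against 489 to 990 CPM in GFP. These ranges overlapped through Olig1 day 14 replicate 2, while replicates 1 and 3 lay above GFP. Slc17a6 ran from 30.8 to 92.6 CPM in Olig1 day 7, against 0 to 0.107 CPM in GFP day 7, and Gad1, an enzyme of GABA synthesis in amacrine cells, from 126 to 1022 CPM, against 0.0547 to 0.761 CPM. At day 14 Gad1 had 154, 1.79 and 76.0 CPM in Olig1 replicates 1, 2 and 3, against at most 0.0418 CPM in GFP. The same sums stand beside Meg3 and beside Impact, described below, and the part of these cell types in the levels of Snhg11, Meg3 and Impact was not tested.

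**Figure D3:**
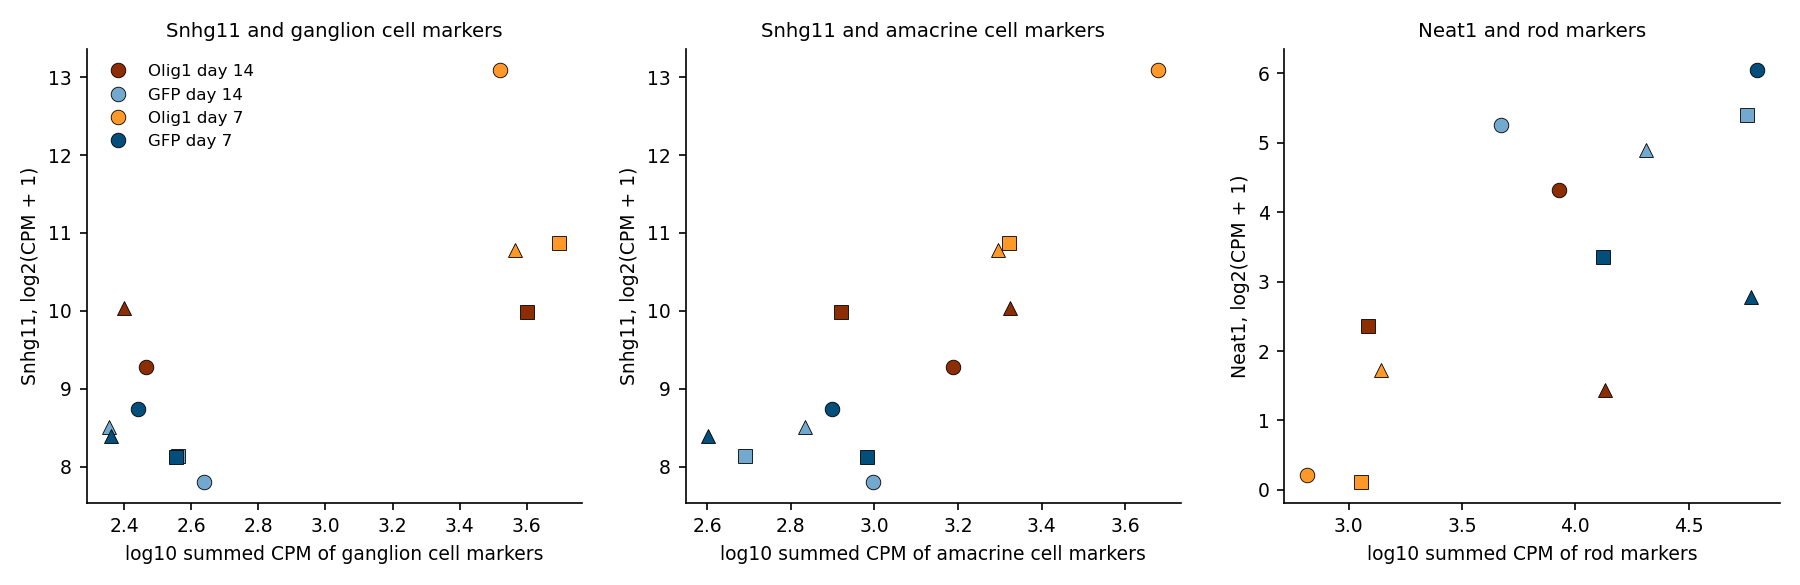
Snhg11 as log2(CPM + 1) against the summed CPM of ganglion cell markers (left) and amacrine cell markers (middle), and Neat1 against rod markers (right), on log10 axes, with a point for each library, shaped by replicate (circle 1, square 2, triangle 3). The Olig1 day 7 libraries lie at the upper right for Snhg11 and at the lower left for Neat1, where 2 of their 3 points have under 0.2 CPM.

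Meg3, the imprinted RNA at the upstream end of its cluster, was higher with Olig1 at day 7, while the viruses overlapped at day 14. It had 192, 206 and 194 CPM in Olig1 day 14, against 279, 111 and 93.8 CPM in GFP day 14. It had 1906, 526 and 1336 CPM in Olig1 day 7, against 230.2, 79.4 and 220.4 CPM in GFP day 7. At day 14 the Olig1 libraries lay inside the GFP range, below GFP replicate 1 and above the other GFP libraries. That overlap thus rested on GFP day 14 replicate 1, the library with the fewest genes detected. At day 7 the lowest Olig1 library lay above the highest GFP library. The log2 fold change was 2.95 ± 0.53 at day 7 and passed (edgeR, adjusted p = 0.0300), and 0.34 ± 0.49 at day 14 (edgeR, adjusted p = 0.996). Within the Olig1 groups it was -2.44 ± 0.51 for day 14 against day 7, with no overlap, and did not pass (edgeR, adjusted p = 0.224), although DESeq2, limma voom and edgeR with no filter called it. The difference of the Olig1 effect between the days was -2.61 ± 0.70 and did not pass (edgeR interaction, adjusted p = 0.341), although the DESeq2 Wald test gave it an adjusted p of 0.0127.

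The Meg3 call at day 7 depended on single libraries. Without Olig1 day 7 replicate 1, its log2 fold change was 2.66 ± 0.55 (edgeR, adjusted p = 0.0712). Without GFP day 7 replicate 1, 2 or 3 the adjusted p was 0.134, 0.146 and 0.154, and with only the day 7 libraries in the fit it was 0.149. It was also lost without the 4 libraries rich in microglia markers, at a log2 fold change of 3.15 ± 0.80 (edgeR, adjusted p = 0.117), while Snhg11 passed there at 4.01 ± 0.74 (adjusted p = 0.0341). Over its 14 alternatives the adjusted p of Meg3 ran from 1.90e-06 to 0.154. At day 14 the log2 fold change of Meg3 ran from 0.11 to 0.81 with 1 library left out at a time.

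**Figure D4:**
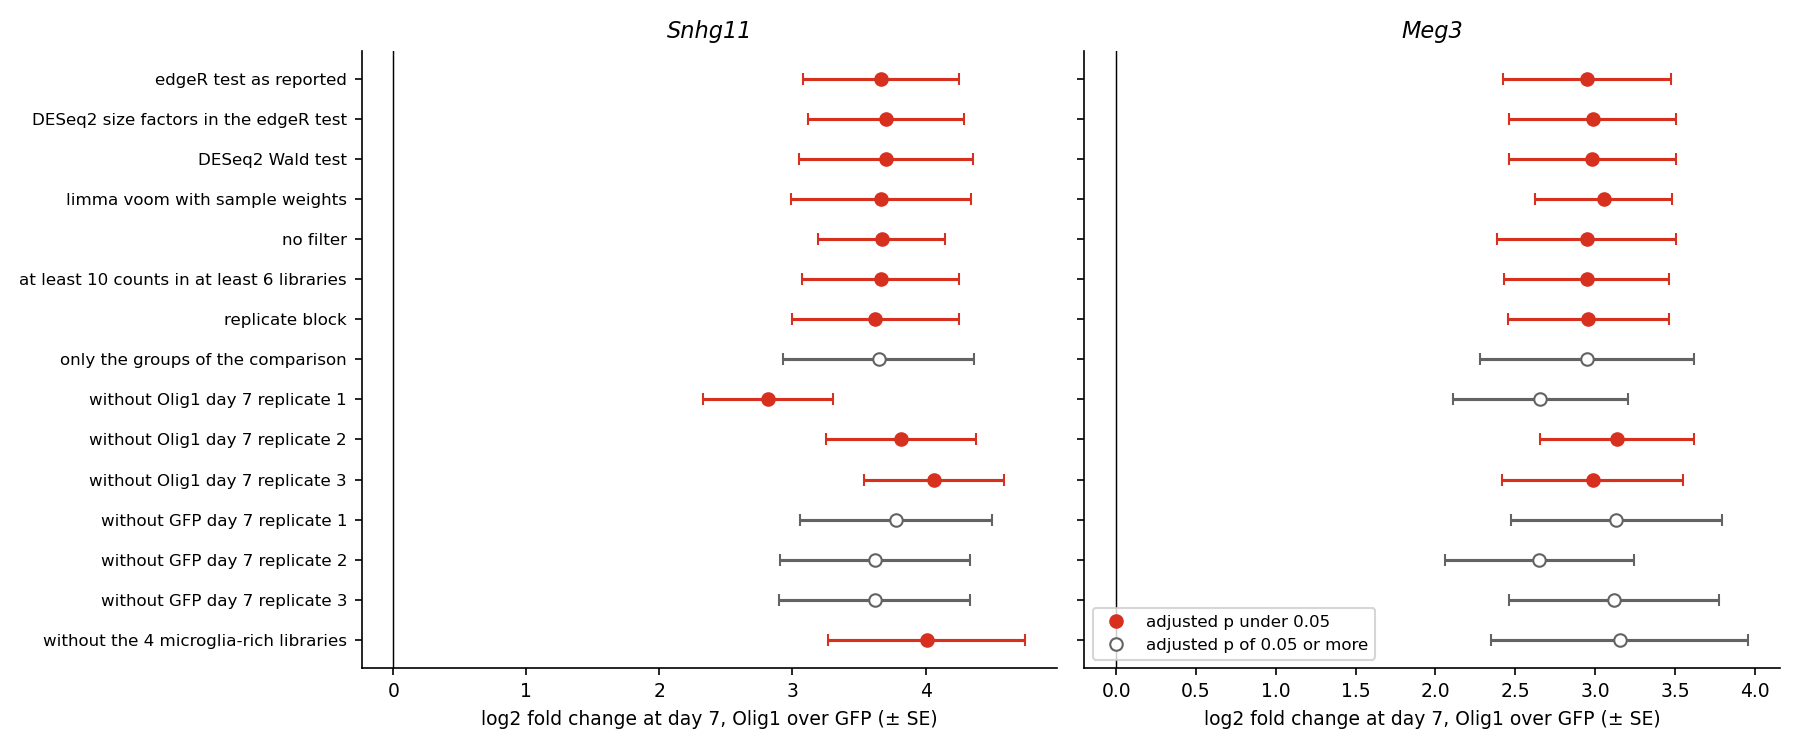
Log2 fold change at day 7, Olig1 over GFP, of Snhg11 (left) and Meg3 (right) under the test as reported and its 14 alternatives, with bars of 1 SE. Every point lies above 2.6 for Meg3 and above 2.8 for Snhg11, and the open points are those with an adjusted p of 0.05 or more.

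Rian, the small nucleolar RNA host of the same domain, had 11, 25.4 and 31.8 CPM in Olig1 day 14, against 2.47, 9.67 and 7.56 CPM in GFP day 14. At day 7 it had 114, 24.8 and 11.2 CPM in Olig1, against 15.2, 2.35 and 16.6 CPM in GFP. The viruses did not overlap at day 14 and did at day 7, where Olig1 replicate 1 was again the highest library and replicate 3 lay below 2 of the 3 GFP libraries. The log2 fold changes were 1.70 ± 1.15 at day 14 and 2.30 ± 1.18 at day 7 (edgeR, adjusted p = 0.763 and 0.402), and without Olig1 day 7 replicate 1 the day 7 value was 1.28 ± 1.44.

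Mirg, the microRNA host at the downstream end, was low, and 3 libraries had no count of it. It had 7.41, 0.367 and 0 CPM in Olig1 day 14, against 5.88, 1.01 and 0 CPM in GFP day 14. At day 7 it had 12.4, 2.63 and 5.20 CPM in Olig1, against 0, 0.109 and 1.87 CPM in GFP. The Olig1 libraries all lay above the GFP libraries at day 7 and not at day 14. With 338 counts summed over Olig1 day 7 and 34 over GFP day 7, the log2 fold change was 3.45 ± 2.72 (edgeR, adjusted p = 0.628), which was 6.68 without GFP day 7 replicate 3, and at day 14 it was 0.35 ± 2.48 (edgeR, adjusted p = 1).

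Within the summed counts of the 3 hosts, Meg3 took most in every group. Its share was 88.7 ± 2.65% in Olig1 day 14 and 93.6 ± 3.08% in GFP day 14, and 95.9 ± 2.61% in Olig1 day 7 and 94.4 ± 2.40% in GFP day 7 (SD, n = 3 each). The share of Rian was 10.1 ± 4.47% in Olig1 day 14 and 5.42 ± 3.95% in GFP day 14, and 3.64 ± 2.50% in Olig1 day 7 and 5.34 ± 2.16% in GFP day 7. Between the viruses at each day, and between the days within GFP, the ranges of both shares overlapped, whereas for Meg3 in Olig1 day 14 and Olig1 day 7 the ranges of 85.95 to 91.2% and 93.8 to 98.8% did not meet. Snhg11 gave 4.52 ± 1.14 counts for each Meg3 count in Olig1 day 14 and 2.40 ± 1.55 in GFP day 14, and 3.16 ± 1.67 in Olig1 day 7 and 2.29 ± 1.06 in GFP day 7, with overlap at each day.

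Malat1, the nuclear speckle RNA, was abundant in every library and overlapped between the viruses. It had 10352, 5401 and 8653 CPM in Olig1 day 14, against 6259, 7498 and 5966 CPM in GFP day 14. At day 7 it had 14027, 5629.7 and 22313 CPM in Olig1, against 15273, 12303.5 and 18737 CPM in GFP. The Olig1 day 7 libraries spread over a wider range than the other groups. The log2 fold changes were 0.27 ± 0.35 at day 14 and -0.07 ± 0.35 at day 7 (edgeR, adjusted p = 0.986 and 0.972), and the sign at day 7 turned to 0.14 without Olig1 day 7 replicate 2 and to 0.05 without GFP day 7 replicate 3. Within GFP, every day 14 library lay below every day 7 library, at a log2 fold change of -0.90 ± 0.36 that did not pass (edgeR, adjusted p = 0.442). The totals of the GFP libraries also separated the days, at 23951224 to 27602459 counts at day 14 and 17088185 to 18770886 at day 7, and the part of depth was not tested.

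Neat1, the paraspeckle RNA, lay on the opposite side from Snhg11 at both days. It had 18.9, 4.15 and 1.70 CPM in Olig1 day 14, against 37.0, 41.1 and 28.7 CPM in GFP day 14. At day 7 it had 0.163, 0.0798 and 2.30 CPM in Olig1, from 3, 1 and 34 counts, against 65.2, 9.25 and 5.85 CPM in GFP. Each Olig1 library lay below each GFP library of its day, and Olig1 day 7 replicates 1 and 2 had no more than the 3 counts that a count of 0 allows. The log2 fold change was -2.13 ± 1.43 at day 14 (edgeR, adjusted p = 0.761) and -4.92 ± 1.63 at day 7 (edgeR, adjusted p = 0.247), and neither passed. The DESeq2 Wald test called the day 7 difference at an adjusted p of 0.00459, among 1139 of 13987 genes called there. Over its 14 alternatives at day 7 the value ran from -7.85 without the microglia-rich libraries to -3.28 without GFP day 7 replicate 1. Set against its neighbour on the chromosome, Neat1 gave 0.931 ± 0.826 counts for each 1000 Malat1 counts in Olig1 day 14 and 5.40 ± 0.553 in GFP day 14, and 0.0429 ± 0.0520 in Olig1 day 7 and 1.78 ± 2.17 in GFP day 7 (SD, n = 3 each), again without overlap at either day.

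At day 7 Neat1 and the photoreceptor markers were both lower in the Olig1 libraries. Within groups, the libraries did not keep one order in Neat1 and the rod sums. The 15 rod markers summed to 1224 to 13548 CPM in Olig1 day 14, against 4691 to 57429.8 CPM in GFP day 14. They summed to 655 to 1393 CPM in Olig1 day 7, against 13318 to 63478 CPM in GFP day 7. The 9 cone markers summed to 41.9 to 745 CPM in Olig1 day 14, against 1169.7 to 5595 CPM in GFP day 14, and to 20.6 to 109 CPM in Olig1 day 7, against 1404 to 1941 CPM in GFP day 7. Of the rod list 14 or 15 markers were detected in each library, and of the cone list 3 to 9. The 15 bipolar cell markers summed to 372 to 606 CPM in Olig1 day 14, against 1634 to 5910.01 CPM in GFP day 14, and to 244 to 539 CPM in Olig1 day 7, against 1344 to 2641 CPM in GFP day 7. The rod sums overlapped between the viruses at day 14 only, and the cone and bipolar sums at neither day. The part of photoreceptor and bipolar cell RNA in the levels of Neat1 was not tested. In GFP day 7, replicate 1 had both the highest rod sum, 63478 CPM, and the highest Neat1 level, 65.2 CPM. So had replicate 2 in GFP day 14, at 57429.8 and 41.1 CPM, and replicate 3 in Olig1 day 7, at 1393 and 2.30 CPM. In their rod sums, other libraries went the other way. GFP day 7 replicate 3 had 5.85 CPM of Neat1 beside 59463 CPM of rod markers, the lowest Neat1 level among the GFP libraries. Olig1 day 14 replicate 3 had the highest rod sum of its group, 13548 CPM, and the lowest Neat1 level, 1.70 CPM. GFP day 14 replicate 1 had the lowest rod sum of the GFP libraries, 4691 CPM, with 37.0 CPM of Neat1. The cone sums of these libraries, in the order named, were 1941, 745 and 5587 CPM, and their bipolar sums were 2461, 372 and 5910.01 CPM. That bipolar sum of GFP day 14 replicate 1 was the highest of all libraries, and that of Olig1 day 14 replicate 3 was the lowest of its group.

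Miat was barely detected. It had 0, 12.5 and 0.160 CPM in Olig1 day 14, against 0, 2.07 and 1.04 CPM in GFP day 14, and 0.707, 0 and 0.203 CPM in Olig1 day 7, against 0, 0.602 and 0.351 CPM in GFP day 7. Of its 426 counts over the 12 libraries, 308 were in Olig1 day 14 replicate 2, and 1 library of each group had none. The log2 fold changes of 1.99 ± 2.64 at day 14 and -0.22 ± 2.57 at day 7 (edgeR, adjusted p = 0.987 and 0.991) give no direction, and without Olig1 day 14 replicate 2 the day 14 value was -3.77. Olig1 day 14 replicate 2 was also the day 14 library with the highest sum of ganglion cell markers, at 3986 CPM, and the part of those cells was not tested.

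**Figure D5:**
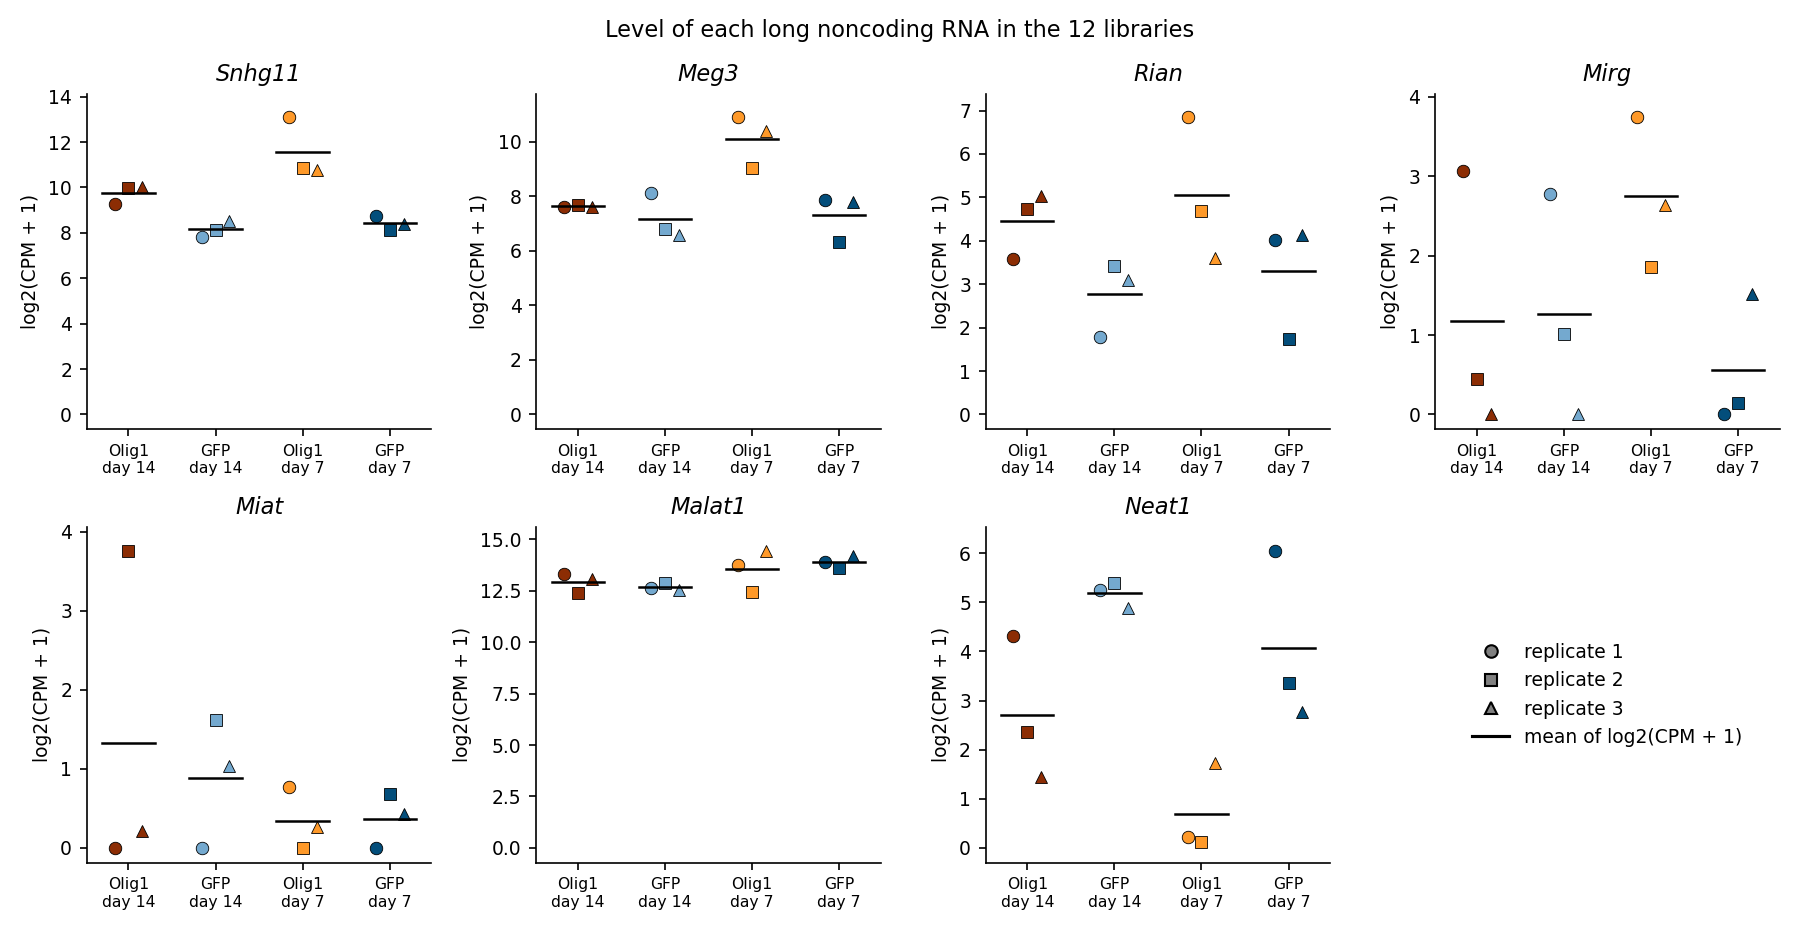
Level of each RNA as log2(CPM + 1) in every library, by group, with the mean of the log values as a bar and the replicate given by the shape of the point. Snhg11 and Meg3 are highest in Olig1 day 7, Neat1 has its lowest mean there, Malat1 spans a narrow range on this scale, and Mirg and Miat reach 0 in 3 and 4 libraries.

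Between the days within a virus, edgeR called 0 of the 7 RNAs. In the Olig1 groups, edgeR called 5 of 14985 genes (0.0334%) for day 14 against day 7, 1 higher (0.00667%) and 4 lower (0.0267%), and Snhg11 (-1.99 ± 0.55, edgeR adjusted p = 0.371) and Meg3 did not overlap on the lower side (10.6% of all genes), with 0 of the 7 on the higher side (5.55%). Other settings called members there. DESeq2 called 795 of 15047 genes, with Snhg11 at an adjusted p of 0.0258 and Meg3 at 7.09e-05. The limma voom fit called 292 of 14985 genes, with Meg3 at 0.00784. EdgeR with no filter called 59 of 25032 genes, with Snhg11 and Meg3 both at 0.0107. In the GFP groups, 0 genes (0.0%) were called by edgeR and 1540 had an unadjusted p under 0.05, against 816 called by DESeq2 and 18 by limma voom, and Malat1 alone of the 7 did not overlap on the lower side (10.5%), with 0 on the higher side (3.96%). For the difference of the Olig1 effect between the days, edgeR called 0 of 14985 genes (0.0%) and 1484 had an unadjusted p under 0.05. DESeq2 called 631 of 15047 genes there, Meg3 among them, and limma voom called 0. The comparisons of day 14 and day 7 share the libraries of each virus with the comparisons of the viruses and are no separate evidence.

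Of the genes in pathways around these RNAs, listed with earlier results known, 1 was called in the comparisons of the viruses. Of 1545 tested genes annotated as long noncoding, edgeR called 1 at day 7, against 34 of all 14985 genes (0.227%), and 0 at day 14. It was Meg3, which was chosen with its levels known. Snhg11, annotated as protein coding, was not among the 1545. The median log2 fold change of the 1545 was 0 at day 14 and -0.17 at day 7. Of the other genes of the Dlk1-Dio3 domain, 5 were in the table, 3 were tested and 0 were called at either day by edgeR; no median is given for so few, and Dio3 had no count in any day 7 library. Begain, a postsynaptic scaffold protein gene at the edge of the domain, had 50.1 ± 35.7 CPM in Olig1 day 14 and 32.2 ± 16.7 in GFP day 14, and 12.3 ± 7.05 CPM in Olig1 day 7 and 29.6 ± 21.2 in GFP day 7 (SD, n = 3 each). Dio3os, antisense to the deiodinase gene Dio3, had 7.77 to 312 CPM in Olig1 day 7 and 0.351 to 41.7 CPM in GFP day 7, a log2 fold change of 3.04 ± 2.36 (edgeR, adjusted p = 0.628).

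Of 27 other imprinted genes, 20 were tested, and 1 was called, higher in Olig1 at day 7; their median log2 fold change was 0.57 at day 14 and 1.10 at day 7. It was Impact, a paternally expressed regulator of the translational stress kinase Gcn2. Impact ran from 1009 to 1209 CPM in Olig1 day 14, against 322 to 638 CPM in GFP day 14, and from 435 to 2228 CPM in Olig1 day 7, against 69.8 to 146 CPM in GFP day 7, where the log2 fold change was 3.76 ± 0.59 (edgeR, adjusted p = 0.0178). The viruses did not overlap at either day. Of 15 tested small nucleolar RNA host genes other than these, 0 were called at either day, and their median log2 fold change was 0.10 at day 14 and 0.58 at day 7. Among them Snhg10 had 3.70 ± 1.85 and Snhg1 2.73 ± 1.46 as log2 fold changes at day 7 (edgeR, adjusted p = 0.389 and 0.423). Of 21 tested genes in a list of other known long noncoding RNAs, 0 were called, with medians of -0.21 at day 14 and -0.03 at day 7. Firre, a nuclear organiser RNA of the X chromosome, had 1.36 to 7.07 CPM in Olig1 day 7 and 27.4 to 49.6 CPM in GFP day 7 without passing (log2 fold change -3.22 ± 1.14, edgeR adjusted p = 0.266), and the imprinted RNA Peg13 had 32.7 to 41.6 CPM in Olig1 day 7 and 3.45 to 10.8 CPM in GFP day 7 (2.58 ± 0.99, adjusted p = 0.283).

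Of the tested protein partners of the nuclear RNAs, edgeR called 0 at either day. Of 28 paraspeckle proteins, 28 were tested, with median log2 fold changes of -0.22 at day 14 and -0.39 at day 7. Hnrnph1, an RNA-binding protein of the paraspeckle, had the smallest p of that list at day 7, with 88.4 ± 33.8 CPM in Olig1 and 373 ± 126 CPM in GFP (log2 fold change -1.93 ± 0.50, edgeR adjusted p = 0.149), and Rbm7 followed at -2.06 ± 0.75 (adjusted p = 0.268). Of 30 tested nuclear speckle and splicing factors, the medians were -0.06 at day 14 and -0.17 at day 7, and the speckle protein Srrm1 had 617 ± 340 CPM in Olig1 day 7 and 406 ± 165 CPM in GFP day 7 (log2 fold change 1.07 ± 0.56, edgeR adjusted p = 0.416). The splicing factor Prpf8 had a log2 fold change of -1.60 ± 0.97 (edgeR, adjusted p = 0.488). Of 11 subunits of Polycomb repressive complex 2 in the table, 10 were tested, and the medians were -0.49 at day 14 and -0.71 at day 7. The largest differences by p in that list at day 7 were those of Jarid2, an accessory subunit, at -2.48 ± 1.30, and of the core subunit Suz12, at -1.78 ± 0.96 (edgeR, adjusted p = 0.413 and 0.426).

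The genes with profiles most like those of these RNAs were found by the root mean square difference of log2(CPM + 1), centred on its mean over the 12 libraries, among 12459 tested genes with a symbol that is no predicted model. A smaller value means a closer profile. For Snhg11 they were Klhl33 (0.582), Dbpht2 (0.589) and Ndrg4 (0.590), against an SD of 1.48 of Snhg11 itself. Klhl33 and Dbpht2 had means of 12.1 and 6.97 CPM in Olig1 day 7 and at most 1.49 CPM in any other group, so their likeness rests on low counts. Ndrg4 had means of 329 CPM in Olig1 day 14, 118 in GFP day 14, 848 in Olig1 day 7 and 168 in GFP day 7. For Meg3 they were Cntn2, an axonal adhesion molecule (0.461), Tspan18 (0.520) and Lgi2 (0.526), all 3 with means under 10 CPM in each group. For Rian they were Copg1 (0.673), Cnnm1 (0.730) and Abhd2 (0.738), and for Mirg Kri1 (0.608), Lin28b (0.615) and Fstl4 (0.651). For Malat1 they were the axonal motor gene Kif1a (0.340), the chromatin remodeller Atrx (0.340) and Ubqln1 (0.368). For Neat1 they were Mtfmt (0.661), Znrd1as (0.697) and Crxos (0.875), and for Miat Npas2 (0.461), Plcl2 (0.466) and Usp27x (0.482). Among the 7 themselves the closest pair was Snhg11 and Rian (0.810), followed by Snhg11 and Meg3 (0.822) and Meg3 and Mirg (0.991), and the farthest was Snhg11 and Neat1 (3.28).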

How the data were processed

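Per the submitters' processing notes, the authors used FastQC, HISAT2 and HTSeq on mm10, and they deposited raw counts of reads per Ensembl gene; of versions, annotation and strandedness nothing is stated there. Per the labels' protocols, polyadenylated RNA was amplified over 20 PCR cycles (SMART-Seq HT), and read counts without molecular identifiers are not independent molecules. Oligo-dT priming reaches Malat1 through an internal A-rich tract and the short, polyadenylated Neat1 isoform more than the long one, and gene counts do not separate isoforms. The series table was used for all 12 libraries, since the per-sample files of 4 libraries ended in mid-line; 0 genes differed where both held a value. Of 54232 genes, 54165 were given a symbol from GENCODE M21. All 7 RNAs share exon bases with other annotated genes, and without the strand setting, reads of Meg3, Miat and Malat1 cannot be told from those of their antisense partners, which had 0, 1 and 0 counts.

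CPM is the count over the library's total times 1000000, and CPM per kb divides it by the merged exon length. Counts were tested with edgeR 4.0.16 (TMM, filterByExpr by group at 10 counts, robust quasi-likelihood) in R 4.3.3, with 1 fit of the 4 groups, which kept 14985 genes, and Benjamini-Hochberg adjustment over all of them at 0.05; the script was tested on simulated data. The SE is the absolute log2 fold change over the root of F. Alternatives were DESeq2 size factors, the DESeq2 1.42.0 Wald test, limma 3.58.1 voom (sample weights), no filter, a minimum of 10 counts in 6 libraries, a replicate block, only the groups compared and leaving out each library. Leaving out the 4 microglia-rich libraries was added after seeing the data. Correlations gave no sign that replicate numbers pair the libraries: the 18 of same-numbered libraries' deviations ran from -0.0657 to 0.0441. With pools this variable, they cannot exclude a shared batch or pairing. The labels mention batches without assigning libraries to them, so batch could not enter a fit. The members, gene lists and tests were chosen with earlier results of these data known. Named were the 7 RNAs, from each list up to 2 called genes or else the 2 with the smallest p at day 7, and for each RNA the 3 closest profiles. Of 293 list entries 288 were found. Promoters and microRNAs are from RefSeq on GRCm38.p6, where 6 of the 7 RNAs had a promoter entry. Python 3.11.15, pandas 2.3.3 and matplotlib 3.10.9 were used.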

Additional observations from a re-analysis of the deposited data

How the results depend on the processing

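Direction held for Snhg11, Meg3, Rian, Mirg and Neat1 at day 7 under all 14 alternatives. Sizes there ran from 2.82 to 4.06 for Snhg11, 2.65 to 3.15 for Meg3, 1.28 to 3.17 for Rian, 2.66 to 6.89 for Mirg and -7.85 to -3.28 for Neat1, and the calls that changed are given above. DESeq2 size factors moved the median log2 fold change of all genes for day 14 against day 7 to -0.19 in Olig1 and -0.25 in GFP, against -0.01 and -0.14 with TMM, and limma voom moved it to 0.20 for Olig1 against GFP at day 7, against -0.03. More genes were called with the DESeq2 Wald test (1139 genes for Olig1 against GFP at day 7, 842 at day 14, 631 for the difference between the days, 795 for day 14 against day 7 in Olig1 and 816 in GFP), with limma voom (409, 30, 0, 292 and 18 in the same order, the 0 being no gain) and with no filter (218, 23, 40, 59 and 13). With at least 10 counts in at least 6 libraries 2 genes were called at day 14 and 2 between the days in Olig1. With only the compared groups in the fit 0 were called at day 14 and 0 between the days in Olig1, and DESeq2 size factors also gave 0 there. Without the 4 microglia-rich libraries, where GFP day 14 keeps 1 library that is assumed to vary like the others, 176 were called at day 14, 127 for the difference, 15 between the days in Olig1 and 145 in GFP; there the median log2 fold change of all genes was 1.53 at day 14, 2.32 for the difference and -0.76 between the days in GFP, so the values of that setting are read against those shifts. Of the 7 RNAs, 0 were called at day 7 with only the compared groups, where 28 of 12737 genes were called. At day 7 the DESeq2 Wald test called Snhg11, Meg3 and Neat1, among 1139 of 13987 genes. It called 1 of the 7 for the difference (631 of 15047 genes) and 2 between the days in Olig1 (795 of 15047 genes). For the days in Olig1, limma voom called 1 of the 7 (292 of 14985 genes) and no filter 2 (59 of 25032 genes). Leaving out 1 library at a time gave 1 to 58 genes and 0 to 2 of the RNAs at day 7, 0 to 6 and 0 to 0 at day 14, 0 to 1 and 0 to 0 for the difference, 0 to 10 and 0 to 0 between the days in Olig1, and 0 to 0 for both in GFP.

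The labels repeat replicate numbers across groups. With the replicate block, 29 of 14985 genes were called at day 7, Snhg11 and Meg3 among them (log2 fold changes 3.62 and 2.96). In that setting 1 gene was called at day 14, 1 for the difference and 5 and 0 between the days in Olig1 and GFP.

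Signs turned only for differences that the test as reported did not call. For Olig1 against GFP at day 7, Miat became 0.0186 with limma voom, 3.63 with the replicate block and 0.0122 without the microglia-rich libraries. At day 14, Meg3 became -0.32 and Mirg -1.03 without the microglia-rich libraries, Miat -2.48 with limma voom and Mirg -0.21 with the replicate block. For the difference between the days, Miat became -2.50 with limma voom and -2.94 with the replicate block, and Rian 0.22 without the microglia-rich libraries. For day 14 against day 7 in Olig1, Miat became -1.02 with the replicate block. In GFP, Snhg11 became -0.58 and Miat -5.61 without the microglia-rich libraries, and limma voom gave -0.17 for Meg3, 0.11 for Rian and -0.46 for Mirg. Leaving out 1 library at a time gave ranges across 0 at day 7 for Miat (-1.68 to 0.80) and Malat1 (-0.42 to 0.14), at day 14 for Miat (-3.77 to 2.68) and Mirg (-3.38 to 2.42), for the difference for Miat (-3.51 to 3.68) and Rian (-1.09 to 0.42), between the days in Olig1 for Miat (-1.65 to 5.62) and Rian (-1.43 to 0.0830), and in GFP for Snhg11 (-0.31 to 0.39), Meg3 (-0.31 to 0.40), Rian (-0.80 to 0.0916) and Mirg (-0.13 to 5.18). The causes were not tested.

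Depth limits Miat and Mirg, with 426 and 712 counts over 12 libraries, and Neat1 in Olig1 day 7, with 38 counts. With 3 libraries a group and a common biological coefficient of variation of 1.35, only differences of several fold passed.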
